A study of Homo sapiens with 2 samples.

Results

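The genes described here are 10 transcription factor genes of the AP-1 and immediate early response, taken as every row of the deposited gene table whose symbol is JUN, JUNB, JUND, FOS, FOSB, FOSL1, FOSL2, ATF3, EGR1 or KLF6. All 10 were found among the 61806 genes of the table. They were measured in SAS, a human cell line of a tongue squamous cell carcinoma, given as epithelial and wild type and grown in medium with serum. One culture received an siRNA against COL17A1, numbered si2 in the labels, and the other a negative control siRNA, both by lipid transfection, and polyadenylated RNA was taken 48 hours later. There was 1 library per group, so no difference has a replicate check and no p-value is given.

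AP-1 is a dimer of leucine zipper proteins that binds the sequence TGACTCA. JUN proteins pair with each other or with FOS proteins, while FOS proteins need a JUN partner, and ATF3 pairs with JUN proteins and often represses. Immediate early genes such as FOS and EGR1 are switched on by serum, growth factors and stress through MAP kinases without new protein synthesis, and most of their mRNAs are short-lived. In squamous epithelium AP-1 is known for its part in keratinocyte differentiation, wound repair and invasion, with FOSL1 (Fra-1) a well-studied member in carcinoma cells.

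The knockdown library held 21601195 counts and the control library 15980152. COL17A1, the targeted gene, had 411 counts in the knockdown library, against 3116 in the control library. Epithelial genes were detected, with a summed level of 1642 FPKM in the knockdown library and 1337 FPKM in the control library over 11 markers (FPKM is a count divided by exonic length and library total). In the knockdown library fibroblast markers summed to 0.29 FPKM, leukocyte markers to 3.34 FPKM and endothelial markers to 0.1 FPKM, against 0.17, 1.99 and 0.15 FPKM in the control library. PTPRC, the pan-leukocyte marker, COL3A1 and PECAM1 had 0 counts in both libraries, and most of the leukocyte sum was CD14, at 3.20 FPKM in the knockdown library and 1.79 FPKM in the control library.

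Of the 10 factors, JUND was higher and KLF6 lower in the knockdown library by at least 1.5-fold, EGR1 lay just short of that size on the lower side, and JUNB, FOSL1 and ATF3 differed by less than 1.1-fold. A gene is called here at a difference of at least 1.5-fold (0.58 on the log2 scale) when its exact 95% counting interval excludes a ratio of 1, a rule that speaks of the libraries only. Of the 10 members 9 passed the filter of a mean of at least 1 CPM (counts divided by the library total after scaling between libraries), all but FOSB. One of the 9 was called higher, where 12.2% of the 13375 tested genes were, and 1 was called lower, where 11.7% were, so both shares were near the background. The median log2 ratio of the 9 was -0.09, beside 0.03 for all tested genes. In bulk RNA, fewer cells that express a gene and less RNA per cell cannot be told apart.

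**Figure D1:**
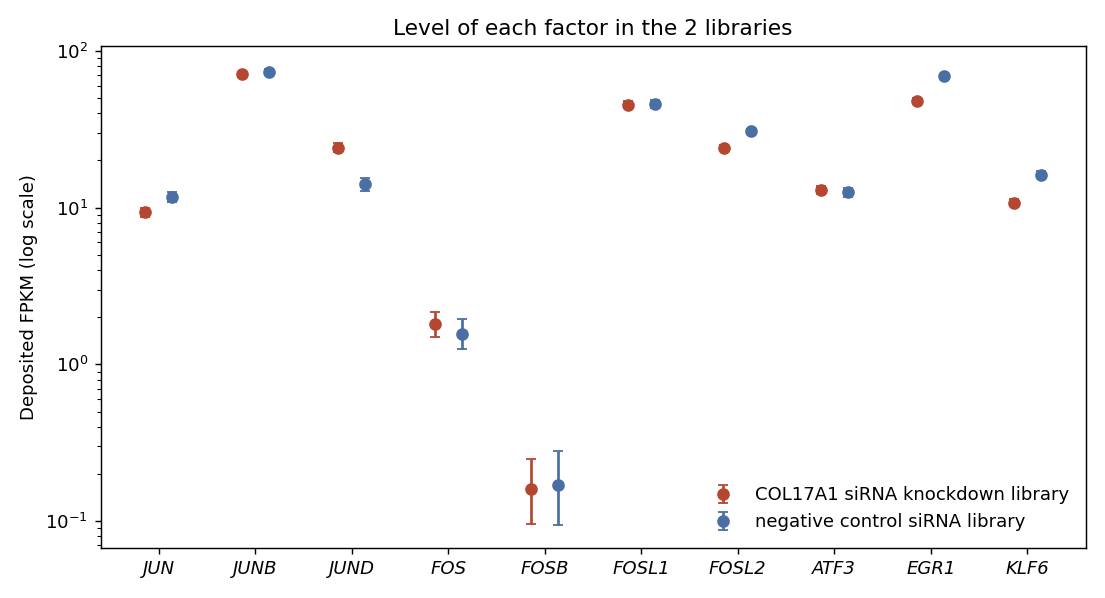
Deposited FPKM of the 10 factors on a log scale in the knockdown library (left point of each pair) and the control library (right point), with exact Poisson 95% intervals that cover counting error only. JUNB, at 71.1 and 73.7 FPKM, is at the top in both libraries and FOSB, at 0.16 and 0.17 FPKM, at the bottom.

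Levels spanned more than 2 orders of magnitude, and the classical inducible members FOS and FOSB were the lowest in both libraries. In the knockdown library the order by FPKM was JUNB, EGR1, FOSL1, JUND, FOSL2, ATF3, KLF6, JUN, FOS and FOSB, where the counting intervals of the neighbours EGR1 and FOSL1, and of JUND and FOSL2, overlapped. In the control library it was JUNB, EGR1, FOSL1, FOSL2, KLF6, JUND, ATF3, JUN, FOS and FOSB, where JUNB and EGR1 overlapped, as did each neighbouring pair in the run of KLF6, JUND, ATF3 and JUN. JUND stood 4th in the knockdown library and 6th in the control library, and KLF6 7th and 5th. JUNB exceeded 95.4% of tested genes in FPKM in the knockdown library and 96.1% in the control library, and FOS exceeded 27.9% and 26.2%.

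Promoter sequence is shown for the 3 factors with the largest differences between the libraries, JUND, EGR1 and KLF6, and for FOS, the prototype of the serum response. The stretches are the 200 bases before the RefSeq start on GRCh38.p14, 5′ to 3′ on the gene's own strand, and capitals mark every match on either strand to the motifs searched. They lie at chr19:18281623-18281822 (minus strand), chr5:138465279-138465478 (plus strand), chr10:3785210-3785409 (minus strand) and chr14:75278628-75278827 (plus strand).
JUND: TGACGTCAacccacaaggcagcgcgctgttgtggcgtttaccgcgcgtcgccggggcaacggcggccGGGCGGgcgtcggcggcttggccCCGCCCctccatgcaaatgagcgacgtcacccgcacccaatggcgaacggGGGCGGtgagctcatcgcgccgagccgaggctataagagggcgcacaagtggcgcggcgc
EGR1: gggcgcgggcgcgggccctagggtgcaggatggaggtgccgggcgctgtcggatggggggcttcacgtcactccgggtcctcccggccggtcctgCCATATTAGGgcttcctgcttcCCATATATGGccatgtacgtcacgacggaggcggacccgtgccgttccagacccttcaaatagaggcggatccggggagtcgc
KLF6: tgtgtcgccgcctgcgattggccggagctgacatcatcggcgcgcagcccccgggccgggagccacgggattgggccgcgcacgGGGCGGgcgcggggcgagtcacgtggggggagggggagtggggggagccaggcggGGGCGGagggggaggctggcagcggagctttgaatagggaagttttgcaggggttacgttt
FOS: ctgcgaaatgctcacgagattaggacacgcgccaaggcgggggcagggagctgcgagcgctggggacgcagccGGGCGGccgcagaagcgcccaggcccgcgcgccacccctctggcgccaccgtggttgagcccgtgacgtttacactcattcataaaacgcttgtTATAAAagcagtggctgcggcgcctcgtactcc

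The motifs were TGACTCA (the AP-1 site), TGACGTCA (the cAMP response element, which ATF and CREB proteins bind), the CArG box of serum response factor, GCGTGGGCG (EGR1), GGGCGG (the GC box of SP and KLF proteins, which can overlap the EGR1 motif), TATAAA, CCGGAAGT (ETS factors) and TGATGNAA (ATF4 with C/EBP), searched on both strands from 250 bases before to 50 after the start. RefSeq promoters were matched for 9 of the 10 members, all but FOSL1, and ATF3 had 2. EGR1 was the only one of the 9 with a CArG box in this window, beside 1.29% of 35116 promoters. It had a pair of them, beginning 105 and 83 bases before the start. A box farther upstream, in FOS or another member, would not be seen. JUND was the only one with TGACGTCA, found in 1.85% of promoters, and it held 6 GC boxes in the window. FOSL2 alone held TGACTCA, found in 4.95% of promoters, just after its start, and ATF3 alone TGATGNAA, found in 3.62%. GC boxes stood in the promoters of 7 of the 9 and of 44.95% of all, TATAAA in 4 of the 9 and 11.5% of all, and GCGTGGGCG and CCGGAAGT in 0 of the 9, with 0.795% and 4.14% of all. A match of letters is not a site of binding, and no match says nothing about the factor.

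Within the JUN family, JUND took a larger share and JUN and JUNB smaller shares in the knockdown library. JUND (ENSG00000130522, GRCh38 chromosome 19, 18279694 to 18281622, minus strand), the most constantly expressed JUN protein and a brake on proliferation in some cells, had 1005 counts or 24.1 FPKM in the knockdown library, against 434 counts or 14.1 FPKM in the control library. That is 1.67-fold higher, a log2 ratio of 0.74 [0.57 to 0.90], with the counting interval in brackets here and below. It exceeded the ratios of 92.3% of tested genes. JUN (ENSG00000177606, chromosome 1, 58776845 to 58784048, minus strand), the founding member and a target of JUN N-terminal kinases, had 729 counts or 9.31 FPKM in the knockdown library, against 675 counts or 11.7 FPKM in the control library. Its log2 ratio of -0.36 [-0.52 to -0.21] is 1.29-fold lower, under the size for a call. JUNB (ENSG00000171223, chromosome 19, 12791486 to 12793315, plus strand), which often opposes JUN in cell growth, had 2809 counts or 71.1 FPKM in the knockdown library, against 2156 counts or 73.7 FPKM in the control library. At -0.09 [-0.17 to -0.01] the difference was small beside the spread of all tested genes, whose 25th and 75th percentiles were -0.33 and 0.37. JUNB overlaps HOOK2 on the opposite strand, and without the strand setting of the counting, which is not given in the sources used here, reads of the overlap cannot be assigned.

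The longest transcript of each JUN gene has a single exon in GENCODE release 29, and JUNB and JUND are short and rich in G and C. The transcript of JUND has a GC content of 69.7%, higher than in 99.8% of tested genes, and an exonic length of 1929 bases. Over the table, log2 ratios went up with GC content and down with length. Of the 395 tested genes with a GC content of at least 65%, 38.2% were called higher and their median log2 ratio was 0.46. Of the 2144 genes under 40% GC, 4.15% were called higher and 20.8% lower, with a median of -0.23. After an adjustment of all tested genes for length, GC content and abundance, JUND was at 0.09, no longer called, and higher than 55.8% of tested genes. JUNB, with a GC content of 64.9%, was then at -0.61, past the size for a call on the lower side, and JUN at -0.57, just short of it. Whether the trend with GC content and length comes from the libraries or from the cells was not tested.

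**Figure D2:**
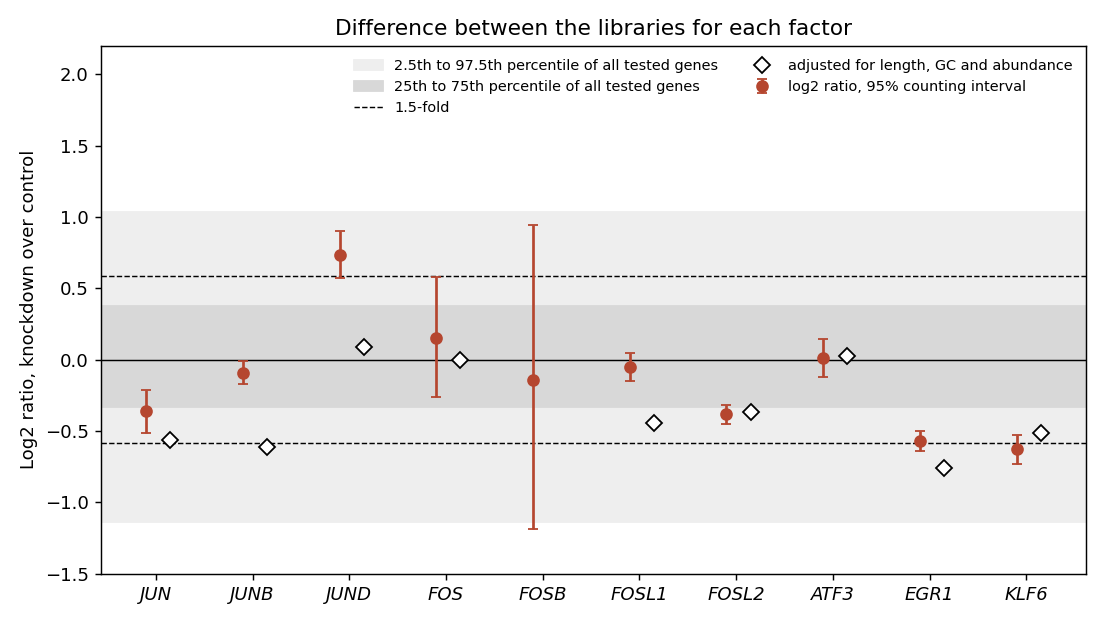
Log2 ratio of each factor, knockdown over control, with its exact 95% counting interval (filled circles), and the same with the trend on length, GC content and abundance removed (open diamonds, not for FOSB), over the spread of all tested genes (grey bands). JUND, at 0.74, moves to 0.09 with the adjustment, and JUNB from -0.09 to -0.61.

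Ratios between 2 members need no scaling between libraries. The JUND to JUN ratio was 2.59 by FPKM in the knockdown library and 1.21 in the control library, a ratio of ratios of 2.14 [1.83 to 2.51]. The JUND to JUNB ratio was 0.339 in the knockdown library and 0.191 in the control library, a ratio of ratios of 1.78 [1.56 to 2.02]. JUNB to JUN was 7.63 in the knockdown library and 6.32 in the control library, a ratio of ratios of 1.21 [1.07 to 1.36]. All 3 intervals excluded 1 before any adjustment. With the adjusted values the ratio of ratios was 1.57 for JUND to JUN and 1.62 for JUND to JUNB, and for JUNB to JUN it turned to the other side of 1, at 0.969. JUND made up 23.1% of the summed FPKM of the family in the knockdown library and 14.2% in the control library, JUNB 68.0% and 74.1%, and JUN 8.91% and 11.7%, while the family's sum was 104.5 FPKM in the knockdown library and 99.5 FPKM in the control library.

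**Figure D3:**
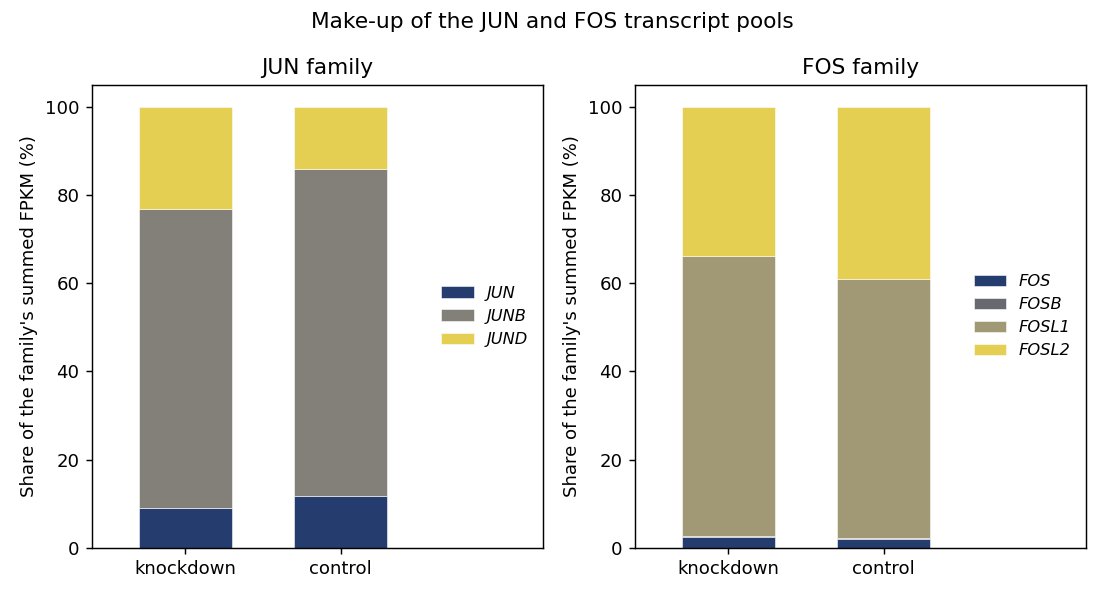
Share of each member in the summed FPKM of the JUN family (left) and the FOS family (right), with the knockdown library left of the control library in each panel and 1 library per bar. JUNB takes 68.0% of the JUN pool in the knockdown library and 74.1% in the control library, FOSL1 takes 63.5% and 58.6% of the FOS pool, and FOSB, under 1%, is too thin to see.

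In the FOS family FOSL1 and FOSL2, which lack the strong activation domain of FOS, made up nearly the whole pool. FOSL1 (ENSG00000175592, chromosome 11, 65892049 to 65900573, minus strand) had 1852 counts or 45.4 FPKM in the knockdown library, against 1382 counts or 45.8 FPKM in the control library, a log2 ratio of -0.05 [-0.15 to 0.05]. No difference was detectable for FOSL1 within counting error, and after the adjustment it was at -0.45. FOSL2 (ENSG00000075426, chromosome 2, 28392448 to 28417317, plus strand), Fra-2, which is known from keratinocyte differentiation, had 3732 counts or 24.1 FPKM in the knockdown library, against 3501 counts or 30.6 FPKM in the control library. Its log2 ratio of -0.38 [-0.45 to -0.31], 1.30-fold lower, was under the size for a call, lay above that of 21.6% of tested genes, and was -0.37 after the adjustment. The ratio of FOSL1 to FOSL2 was higher in the knockdown library, with a ratio of ratios of 1.26 [1.16 to 1.37], but the direction turned with the adjusted values, which gave 0.946.

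The inducible FOS genes were rare, and no difference was detectable for them at this depth. FOS (ENSG00000170345, chromosome 14, 75278826 to 75282230, plus strand) had 124 counts or 1.80 FPKM in the knockdown library, against 80 counts or 1.57 FPKM in the control library, a log2 ratio of 0.16 [-0.26 to 0.58]. FOSB (ENSG00000125740, chromosome 19, 45467995 to 45475179, plus strand) had 19 counts in the knockdown library and 15 in the control library, 0.868 and 0.951 CPM, with an interval of -1.19 to 0.95 around -0.14. Counts per gene do not tell apart the full-length and truncated FOSB proteins, which come from alternative splicing, and FOSB overlaps ERCC1 on the opposite strand. The family's sum was 71.5 FPKM in the knockdown library and 78.2 FPKM in the control library. FOSL1 took 63.5% of it in the knockdown library and 58.6% in the control library, FOSL2 33.7% and 39.1%, FOS 2.52% and 2.01% and FOSB 0.224% and 0.217%. With ATF3 added, the JUN and FOS pool summed to 189 FPKM in the knockdown library and 190.2 FPKM in the control library.

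ATF3 (ENSG00000162772, chromosome 1, 212565334 to 212620777, plus strand), a stress-induced partner of JUN proteins, differed by less than counting error. It had 1134 counts or 13.0 FPKM in the knockdown library, against 809 counts or 12.5 FPKM in the control library, a log2 ratio of 0.01 [-0.12 to 0.15] and 0.03 after the adjustment. Of 13 genes of the ATF4 and ATF3 stress response 2 were called higher and 1 lower, 15.4% and 7.69%, near the 12.2% and 11.7% of all tested genes, around a median of 0.12. VLDLR, a lipoprotein receptor, was at 1.21 [0.69 to 1.79] and DDIT4, an inhibitor of mTOR complex signalling, at 0.59 [0.54 to 0.64]. ASNS, asparagine synthetase, was at -0.75 [-1.11 to -0.39]. DDIT4 was at 0.27 after the adjustment and was not called then or with DESeq2 size factors. Of the 13 genes 1 was called higher after the adjustment, beside 8.06% of all genes, and 2 lower, beside 9.04%.

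EGR1 and KLF6, the zinc finger members, both lay on the lower side. EGR1 (ENSG00000120738, chromosome 5, 138465479 to 138469303, plus strand), an immediate early factor induced through serum response factor, had 3254 counts or 48.0 FPKM in the knockdown library, against 3477 counts or 69.4 FPKM in the control library. The level was 1.48-fold lower in the knockdown library, a log2 ratio of -0.57 [-0.64 to -0.50], just short of the size for a call, which it reached with DESeq2 size factors at -0.59 and after the adjustment at -0.76. Genes of its class of GC content, 55% to 60%, had a median of 0.23, and 4.88% of them were called lower. KLF6 (ENSG00000067082, chromosome 10, 3775996 to 3785281, minus strand), a GC-box binding factor described as a tumour suppressor, had 1428 counts or 10.8 FPKM in the knockdown library, against 1590 counts or 16.2 FPKM in the control library. It was 1.55-fold lower, at -0.63 [-0.73 to -0.52], a ratio above that of 10.8% of tested genes, and at -0.52 after the adjustment it was no longer called. Genes of its class of GC content, 45% to 50%, had a median of -0.02, and 12.1% of them were called lower, as were 14.3% of genes of 6000 to 8000 bases, the class of its exonic length of 6139 bases. The ratio of EGR1 to KLF6 was 4.46 by FPKM in the knockdown library and 4.28 in the control library, a ratio of ratios of 1.04 [0.955 to 1.14], so no unequal difference between them was detectable within counting error, and it was 0.843 with the adjusted values. No member called without the adjustment was called after it, and the pair called lower after it was EGR1 and JUNB, 2 of 9 members, where 9.04% of 13258 genes were called lower and 8.06% higher.

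The 3' untranslated regions (UTRs) of the members held words of short-lived mRNAs. The pentamer ATTTA, the core of AU-rich elements, stood in the longest annotated 3' UTR of all 10 members and of 75.2% of the 11712 tested genes searched, with 9 copies in FOSL2, 6 in KLF6 and 5 in FOS. The longer TATTTAT, which contains ATTTA, stood in 8 of the 10 and in 36.1% of the genes searched, absent from JUNB and EGR1. Tested genes with TATTTAT had a median log2 ratio of -0.16 and those without it 0.12. Medians by word in this paragraph were not adjusted for length or GC content, with which log2 ratios had a trend over the table. An earlier search of these same libraries had drawn attention to the words GCTAATG and TCGGAGA in 3' UTRs. GCTAATG stood in KLF6 alone of the 10 and in 9.18% of the genes searched, whose median was -0.40 beside 0.05 for genes without it. TCGGAGA stood in FOSL2 alone of the 10 and in 2.99% of the genes searched, whose median was 0.06 beside 0.01 for genes without it. The part of these words in the values of KLF6 and FOSL2 was not tested.

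Among 24 tested partners and relatives of AP-1 in the leucine zipper class, 3 were called higher and 3 lower, 12.5% each, near the background, around a median of -0.06. JDP2, a repressor that dimerises with JUN proteins, was at 0.98 [0.71 to 1.26], with 403 counts in the knockdown library and 147 in the control library, and 0.98 after the adjustment. CEBPD, a C/EBP factor of acute responses, was at 0.97 [0.82 to 1.12] and at 0.24 after the adjustment. CREB1, the cAMP response factor, was at -0.83 [-0.92 to -0.73] and at -0.43 after the adjustment. Of the 24 genes 3 were called higher after the adjustment, beside 8.06% of all genes, and 2 lower, beside 9.04%. Of 28 other immediate early genes 1 was called higher and 2 lower, shares of 3.57% and 7.14%, around a median of 0.03. CSRNP1, a nuclear protein, was at -1.06 [-1.31 to -0.81], SGK1, a serum-induced kinase, at -0.73 [-0.79 to -0.68] and IER5L, a relative of IER5, at 0.66 [0.10 to 1.28] on 82 counts in the knockdown library and 37 in the control library. After the adjustment SGK1, at -0.43, and IER5L, at 0.18, were no longer called, while other genes of the list came to be called lower. Of the 28 genes 3 were then called lower, beside 9.04% of all genes, and 0 higher, beside 8.06%. Only 1 of these 3 was also called without the adjustment, and the list's median was -0.17.

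Relatives of KLF6 and EGR1 gave 3 calls, all lower. Of 16 KLF and SP genes 3 or 18.8% were called lower and 0 higher, beside 11.7% and 12.2% of all tested genes. Their median was -0.22. KLF7 was at -0.95 [-1.05 to -0.86], KLF12 at -0.95 [-1.14 to -0.75] and SP4 at -0.86 [-1.15 to -0.57]. The same 3 were called lower after the adjustment, where 9.04% of all genes were. Of the EGR family and its corepressors 3 of 6 were tested with 0 calls. NAB1 and NAB2, which restrain EGR1, were at -0.11 [-0.19 to -0.02] and 0.10 [-0.02 to 0.21].

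Upstream of the factors, 14 serum response, ternary complex and CREB pathway genes gave 1 higher and 5 lower calls, 7.14% and 35.7% beside 12.2% and 11.7% of all tested genes, around a median of 0.02. CREB1, at -0.83, was among these 5 and was also counted in the leucine zipper list. Some lists share genes, so their shares are not separate observations. The coactivator genes CREBBP and EP300 were at -1.12 [-1.25 to -0.98] and -0.78 [-0.88 to -0.68] and RPS6KA5 (MSK1), a kinase that phosphorylates histone H3 at immediate early genes, at -0.79 [-0.99 to -0.58]. RPS6KA2 (RSK3), an ERK-activated kinase named after its values were seen, was the higher gene at 1.45 [0.51 to 2.60], on 43 counts in the knockdown library and 11 in the control library. After the adjustment 2 of the 5 lower genes, CREBBP and EP300, were still called, beside 9.04% of all genes called lower. Then 2 genes of the list were called higher, beside 8.06% of all genes: RPS6KA2, at 1.44, and another gene not called without the adjustment. Of 20 MAP kinase pathway genes 1 was called higher and 1 lower, 5.0% each. MAPK3 (ERK1) was at 0.84 [0.70 to 0.98] and MAP2K4, a kinase of the JNK pathway, at -0.80 [-0.91 to -0.68]. MAPK3 was at 0.53 after the adjustment, no longer called. Of 17 genes that turn over JUN and FOS proteins or AU-rich mRNAs 3 or 17.6% were called lower, beside 11.7% of all tested genes, and 0 higher, around a median of -0.27. CNOT1, the scaffold of the deadenylase complex, was at -1.004 [-1.06 to -0.95] and XRN1, the cytoplasmic exonuclease, at -0.83 [-0.93 to -0.72]. After the adjustment XRN1, at -0.45, was no longer called. Of the 17 genes 2 were then called lower, beside 9.04% of all genes, and 1 of these 2 was also called without it.

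**Figure D4:**
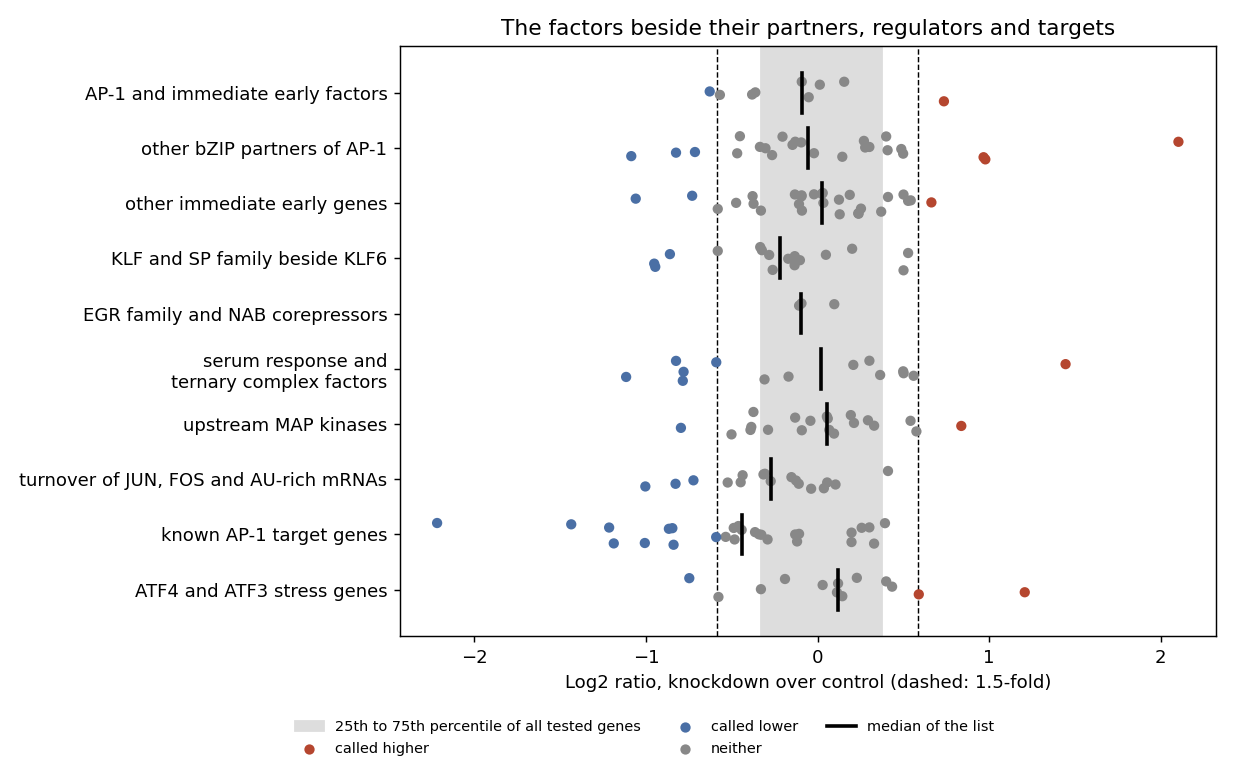
Log2 ratio, knockdown over control, of each tested gene of the 10 lists (points, coloured by call), with the median of each list (black bars) and the 25th to 75th percentile of all tested genes (grey). The known AP-1 target genes, with a median of -0.44, hold 9 lower and 0 higher calls.

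Without the adjustment, genes known as AP-1 targets had more lower calls than the background share, while the AP-1 genes themselves did not. Of 33 listed targets 27 were tested, 9 or 33.3% were called lower and 0 higher, and 21 had a negative log2 ratio, around a median of -0.44. The list was chosen with earlier results of these data known, and several of its genes had been seen to be lower, so the count is a description. After the adjustment 9 targets were called lower, beside 9.04% of all genes, and 0 higher, around a median of -0.33. Of these 9 targets 8 were also called without it, with TGM1 in place of VEGFA. The 9 tested members then had a median of -0.45, with 2 called lower, EGR1 and JUNB, so the contrast with the targets did not hold after the adjustment.

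MMP3, the matrix protease stromelysin and a classical target with an AP-1 site, was at -2.22 [-2.54 to -1.92], with 2.85 FPKM in the knockdown library and 12.9 FPKM in the control library. IL1A, the cytokine interleukin 1 alpha, was at -1.44 [-1.47 to -1.40], with 285 FPKM in the knockdown library and 752 FPKM in the control library. INHBA, a subunit of activin, had 16.4 FPKM in the knockdown library and 37.2 FPKM in the control library, at -1.21 [-1.28 to -1.15]. EREG, an EGFR ligand, was at -1.19 [-1.30 to -1.07]. Further called targets, named after their values were seen, were CCND1 (cyclin D1) at -1.01, ITGA2 at -0.87, PTGS2 at -0.84 and VEGFA at -0.59. INHBA, EREG and VEGFA are among the 4 of 27 tested targets that hold GCTAATG in the 3' UTR, and 0 hold TCGGAGA. Of the 13375 tested genes 1075 hold GCTAATG and 350 hold TCGGAGA. Without genes that hold either word, which leaves out those 4 targets, 6 targets were called lower, beside 1140 genes in all. With these genes kept, the counts were 9 targets and 1565 genes in all. The totals differ between the settings, so the counts cannot be compared as shares. Other protease genes of the list did not go the same way: MMP1 was at 0.20 [0.07 to 0.33] and PLAU, urokinase, at 0.26 [0.22 to 0.30], both named after their values were seen.

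**Figure D5:**
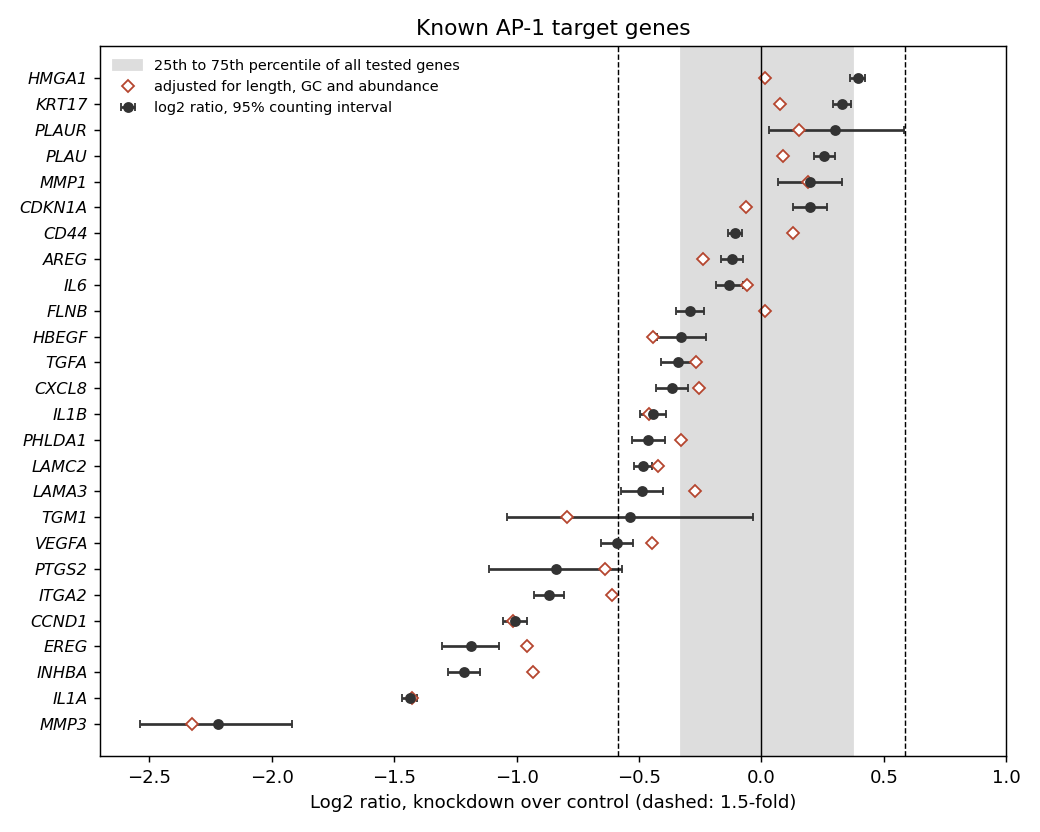
Log2 ratio, knockdown over control, of 26 of the 27 tested AP-1 target genes with exact 95% counting intervals (filled circles), and with the trend on length, GC content and abundance removed (open diamonds). MMP3 is lowest at -2.22 and HMGA1 highest at 0.39, and 8 of the plotted genes lie past 1.5-fold (dashed) on the lower side.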

How the data were processed

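The authors' table holds a raw count per gene for each of the 2 libraries. FPKM values stand beside the counts per the file headers, and for 100% of genes the deposited FPKM could be recomputed to within 0.0051 from the count, size and total. The submitters' processing notes name STAR, HISAT2 and edgeR with the builds GRCh38 and hg38, without a role or version. How reads were assigned to genes, with which strand setting and annotation, is not stated in what was used here.

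Counts were scaled with TMM factors of 1.01 (knockdown) and 0.987 (control; edgeR 4.0.16, R 4.3.3), and 0.5 was added before taking log2 ratios of knockdown over control. Exact Clopper-Pearson 95% intervals of ratios cover counting error only, and the labels mention no molecular identifiers, so reads may not be independent molecules. A count of 0 allows up to 0.137 CPM in the knockdown library and 0.19 CPM in the control library, taking 3 counts as the limit. The filter of a mean CPM of at least 1 kept 13375 of 61806 genes. edgeR's quasi-likelihood test has no residual degrees of freedom with 1 library per group.

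The adjustment is the residual of a linear fit with squared terms on exonic length, transcript GC content and abundance, with log2 ratios limited to 3 in size for the fit. GENCODE release 29 on GRCh38 gave GC content (99.1% of tested genes), exons, overlaps and 3' UTRs (of at least 50 bases), matched by gene identifier, and RefSeq gave promoters. Ratios of ratios are conditional odds ratios with exact intervals. Steps were tested on simulated data.

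The alternatives were scaling by DESeq2 1.42.0 size factors or by total counts, an offset of 2, FPKM with 0.1 added, other filters, a 2-fold rule, protein-coding genes and genes of like length. Leaving out genes with either 3' UTR word, and the alternatives for all lists other than the members and for ratios between members, were chosen after seeing the data. All members and lists were chosen with earlier results of these data known. Named are all members and, of each other list, up to 4 called genes whose interval bound was farthest from 1 or, with fewer than 2 called, the most abundant up to 2, with exceptions marked. Some genes counted in the lists are not reported here by name. Computation used pandas 2.3.3, scipy 1.17.1 and numpy 2.4.6 under Python 3.11.15, with plots from matplotlib 3.10.9.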

Additional observations from a re-analysis of the deposited data

How the results depend on the processing

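With 1 library per group, intervals hold counting error alone, and a call can be variation between cultures. No paired analysis was possible because there is 1 library per group, which makes a single pair without replication. The members' log2 ratios stayed within their counting intervals under the 5 alternatives tried on each, 4 for FOSB, with the exception of the adjustment for length, GC content and abundance, under which JUN, JUNB, JUND, FOSL1, EGR1 and KLF6 left them. The adjustment gave 0 members called higher and 2 lower and a median of -0.45, beside 1068 (8.06%) of 13258 genes called higher, 1198 (9.04%) called lower and a median of 0.03. DESeq2 size factors gave 2 members called lower, EGR1 reaching the size. The 2-fold rule called 0 members higher and 0 lower, and 0 of the 27 tested AP-1 targets higher and 5 lower. Of all tested genes it called 407 (3.04%) higher and 481 (3.60%) lower. Without genes that hold either 3' UTR word 0 members were called lower, since KLF6 holds one and is left out, beside 1140 of the genes kept. Of the 8032 tested genes within the members' range of exonic length, 1075 (13.4%) were called higher and 702 (8.74%) lower. Of all tested genes 12.2% and 11.7% were. ATF3 changed sign with DESeq2 size factors, at -0.01, and FOS with the adjustment, at -0.00320, both within counting error. Depth limits FOS and FOSB.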

Other observations

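Several relatives of the factors were expressed below the filter of a mean of 1 CPM and entered no count above. EGR2, an early growth response factor of nerve and immune cells, had 29 counts in the knockdown library and 8 in the control library, with an interval of the log2 ratio of 0.22 to 2.72. BATF3, a leucine zipper partner of JUN proteins known from dendritic cells, had 24 counts in the knockdown library and 4 in the control library, with an interval of 0.57 to 4.10. Both were named after their values were seen, and both rest on few counts in 1 library per group. EGR4 had 3 counts in each library and no difference was detectable for it.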
